A study of Bos indicus x Bos taurus with 78 samples.

Results

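Loin muscle biopsies of the 53 steers labelled Normal were described on their own, out of 78 steers in the study. They were chosen by the phenotype label alone, and no contrast with the other steers was made. The study as a whole asked which microRNAs (miRNAs) go with dark-cutting, a defect in which beef stays dark after slaughter. All 53 were male Bos indicus x Bos taurus animals, and the tissue was frozen Longissimus lumborum, the long muscle of the loin. The labels give no age, feed, slaughter day or biopsy time for them. Each steer gave 1 biopsy and 1 small RNA library, prepared with a NEXTflex kit, so the spread between steers holds differences of animal, biopsy and library together.

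MiRNAs are short RNAs that bind messenger RNAs and lower their translation or stability. Skeletal muscle fibres are known for a small set of them, the myomiRs, which include miR-1, miR-133a, miR-133b, miR-206, miR-208b and miR-499 and which act in fibre differentiation and fibre type. A muscle biopsy also holds vessels, blood, connective tissue and nerve, each with miRNAs of its own. In such bulk tissue, fewer cells of a type and less RNA per cell cannot be told apart.

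The 53 libraries held 1427817 to 4535675 counts each (median 3211620). A library held between 336 and 445 miRNA rows with at least 1 count, with a median of 399. Of the 1030 rows of the table, 720 had a count in some normal steer, 239 had one in every normal steer and 310 were at 0 throughout. Rows with identical counts were joined, which left 688, and the 226 of these with a mean count of at least 10 held 99.98% of all counts. Ranks of the miRNAs were close between steers: Spearman rho of 1 steer's counts with another's lay between 0.932 and 0.984 over the 1378 pairs of libraries, with a median of 0.967. A chi-square test of counts found every pair of libraries to differ by more than sampling noise, with at least 7.10 per degree of freedom.

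The defining miRNAs of skeletal muscle led the profile, and those of epithelium were close to 0. Counts of miR-1 ran from 1215662 to 3818582 per steer, and those of miR-133a from 24480 to 111633. The epithelial miRNAs miR-200a, miR-200b, miR-200c and miR-141 each had a mean below 1 count and at most 5 counts in a steer. The liver miRNA miR-122 had at most 4 counts, and miR-124a, a miRNA of neurons, at most 2. Other miRNAs listed for these tissues, which are less specific to them, were present: miR-192 had a mean of 136 counts, miR-194 315, miR-9-5p 19.6 and miR-128 1052. The heart miRNA miR-208a had a mean of 2.28 counts. Smooth muscle, endothelial, fibroblast and blood miRNAs were present in every steer, among them miR-143, miR-126-3p, miR-199a-3p, miR-451 and miR-142-5p.

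A single miRNA, miR-1, filled most of every library. Its share of all counts was 84.2% ± 3.04 (SD, n = 53), with a lowest value of 72.3%, a median of 84.7% and a highest value of 88.6%. The lowest share belonged to normal replicate 20, whose 95% Wilson interval was 72.3% to 72.4%, and the next steers followed at 78.7% in replicate 53, 78.7% in replicate 38 and 79.1% in replicate 40. Intervals of this kind cover counting error only. Only 5 of the 53 steers had a share below 80%, and miR-1 ranked 1st in all 53.

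The miRNAs that followed were an order of magnitude or more below miR-1. A miRNA of smooth muscle and pericytes, miR-143, came next at 2.58% ± 0.995 (SD, n = 53), between 1.26% and 6.31% per steer. The myomiR miR-133a held 1.87% ± 0.601 (SD, n = 53), between 1.01% and 3.11%. Ranges of miR-143 and miR-133a overlapped, and their order was not the same in each animal: miR-143 ranked 2nd in 39 steers and miR-133a in the other 14. The rank below was taken by miR-133a in 36 steers, by miR-143 in 14, by miR-26a in 2 and by miR-22-3p in 1.

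Below these stood miRNAs that many tissues share. Mean shares were 1.08% ± 0.336 (SD, n = 53) for miR-22-3p and 1.02% ± 0.310 for miR-26a, which differed by less than the spread of either. Then came miR-30e-5p at 0.814% ± 0.159, let-7f at 0.739% ± 0.0935, the slow-fibre myomiR miR-499 at 0.540% ± 0.153, miR-126-3p of the endothelium at 0.484% ± 0.149 and finally miR-30a-5p at 0.459% ± 0.0950. Ranges over steers overlapped for each of these neighbours. Places 11 to 20 were held by let-7a-5p, let-7g, miR-24-3p, miR-27b, miR-378, miR-21-5p, the myomiR miR-206, miR-30d, miR-10b and miR-26b, with means from 0.407% down to 0.189%. Summed over rows of 1 name, the let-7 rows held 1.84% of counts, miR-133 1.90%, miR-30 1.65% and miR-26 1.21%.

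The profile was steep at the top and long below it. The 10 leading miRNAs together held 93.8% of counts, the leading 20 held 96.9% and the leading 50 held 99.1%. Of the 688 rows, 5 had a mean share of at least 1%, 23 lay between 0.1% and 1%, 53 between 0.01% and 0.1%, and 607 below that. Steers shared most of the top of the list: 17 miRNAs appeared in the 10 highest of at least 1 steer and 25 in the 20 highest, while each steer's own 20 highest held at least 17 of the 20 group leaders. The same 10 miRNAs, in any order, led in 13 steers. With miR-1 taken out of the total, miR-143 held 16.2% and miR-133a 11.8% of what was left.

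**Figure D1:**
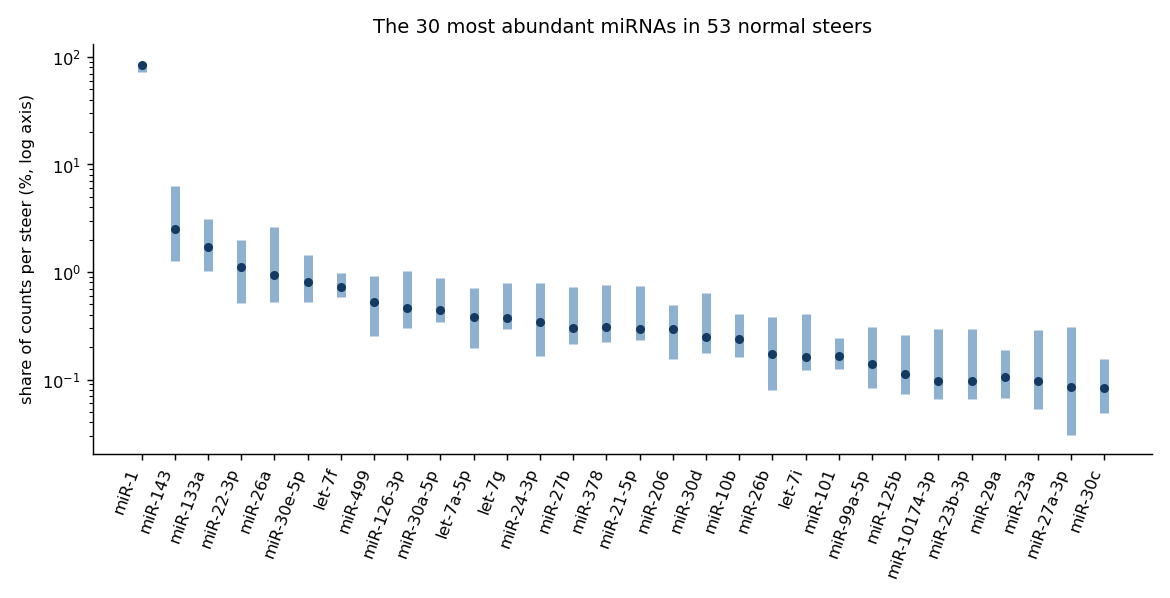
Share of all counts per steer, in percent on a log axis, for the 30 most abundant miRNAs of the 53 normal steers, with dots at the medians and bars from the lowest to the highest steer. MiR-1, with a median of 84.7%, stood alone, and from miR-143 on the bars of neighbouring miRNAs overlapped.

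Among the myomiRs the fibre miRNAs other than miR-1 were present at very different counts. The mean was 60225 counts for miR-133a, 17295 for miR-499, 9814 for miR-206, 1695 for miR-486, 828 for miR-133b and 258 for miR-208b. Counts are not corrected for how well each sequence enters a library, so they order these miRNAs within this kit only. Together the myomiRs held 87.0% ± 2.54 (SD, n = 53) of all counts.

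Spread between steers was measured on counts scaled by the trimmed mean of M-values (TMM), as log2 CPM (counts relative to library size), and as a coefficient of variation (CV) from which the counting part had been taken out. Such a level is set by what else the library holds, so it is relative and not an amount per cell. Over the 226 miRNAs with a mean count of at least 10 the median CV was 24.8%, with quartiles of 19.5% and 34.8% and a range from 9.75% to 190%. The SD of log2 CPM had a median of 0.39, so a typical miRNA differed little between animals. It was under 0.3 for 63 miRNAs and at least 0.8 for 10. In 10 miRNAs the upper quartile of steers stood at least 2-fold above the lower quartile.

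Abundant miRNAs had the smaller spread by the medians of count bins, but not each of the leading ones did. The median CV was 34.4% for the 57 miRNAs with mean counts from 10 to 30, 27.9% for the 45 from 30 to 100, 22.9% for the 79 from 100 to 1000 and 18.7% for the 45 at 1000 or more. In the last bin the median SD of log2 CPM was 0.27. Of the leading miRNAs, miR-143 (0.48), miR-133a (0.37) and miR-1 (0.32) lay above that, and miR-26a (0.20) below it. Across the 226 miRNAs, Pearson r of CV with mean log2 CPM was -0.33 and Spearman rho was -0.57. This is a description over miRNAs of the same libraries, which are not independent replicates.

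**Figure D2:**
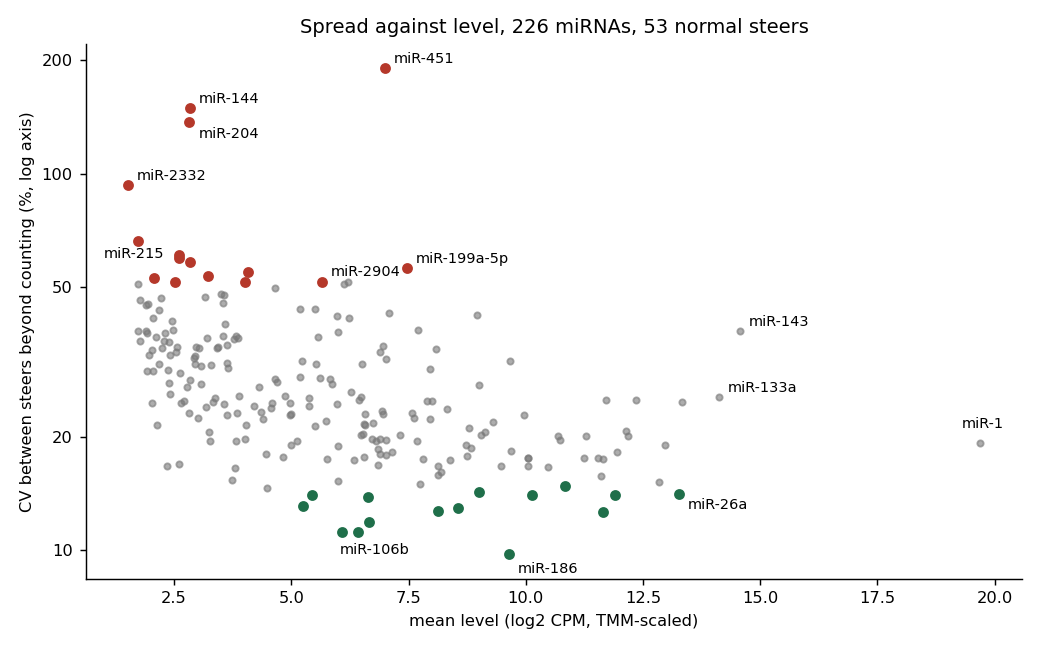
CV between the 53 normal steers beyond counting, in percent on a log axis, against mean level in TMM-scaled log2 CPM for 226 miRNAs, with the 15 most variable in red, the 15 least variable in green and the rest in grey. The highest point is miR-451 at 190% and the lowest is miR-186 at 9.75%, while miR-1 lies at 19.3%.

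On the TMM scale, the steadiest miRNAs were sought among those of at least 100 counts on average, and none was a myomiR. Of these 124, miR-186 had the smallest CV at 9.75%, followed by miR-106b at 11.2%, miR-361 at 11.2%, miR-2284x at 11.9% and miR-27b at 12.6%. The next were miR-191, miR-125a, miR-342, miR-339a, let-7g, miR-125b, miR-425-5p, miR-26a, miR-98 and miR-26b, with CVs from 12.7% to 14.8%. Of the abundant miRNAs, miR-26a ran from 12.63 to 13.75 log2 CPM with a median of 13.25, an SD of 0.20. By share of all counts, miR-186 held 0.0814% ± 0.0199 (SD) and the myomiR miR-1 84.2% ± 3.04. Relative to its mean, miR-1 varied less than miR-186 there, so the absence of myomiRs among the steadiest depends on the scale.

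MyomiRs varied to different degrees. The most abundant, miR-1, had a lowest level of 18.47, a median of 19.77 and a highest level of 20.22 log2 CPM, an SD of 0.32 (95% interval 0.26 to 0.39). The low end was replicate 20, and most steers lay within a narrow band. On the TMM scale, the steadiest myomiR was miR-206, a miRNA of muscle differentiation. Its levels ran from 10.97 to 12.08 with a median of 11.57, an SD of 0.26 (95% interval 0.22 to 0.32). Between these and the rest lay miR-133b with an SD of 0.31, miR-133a with 0.37, miR-499 with 0.39 and miR-486 with 0.39. The order of miR-1 and miR-206 depended on the scale. By share of all counts, miR-1 held 84.2% ± 3.04 (SD) and miR-206 0.307% ± 0.0742. Relative to its mean, miR-1 varied less than miR-206 there, on a scale of which miR-1 is itself the larger part.

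The most variable myomiR was miR-208b, which lies within MYH7, the gene of the slow myosin heavy chain. Its levels ran from 4.33 to 7.74 with a median of 6.13 log2 CPM, an SD of 0.73 (95% interval 0.61 to 0.90), and the highest steer stood 10.7-fold above the lowest. Its counts were between 47 and 652 per steer. The related miR-499, encoded in MYH7B, was far more abundant and ran from 11.21 to 13.03 with a median of 12.41. Replicate 36 was the highest steer for both. The intervals of their SDs, 0.61 to 0.90 and 0.33 to 0.48, did not overlap.

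Vessel miRNAs differed in spread. The SD was 0.48 for miR-143 and 0.41 for miR-145, which are processed from 1 transcript in smooth muscle. Levels of miR-143 ran from 13.59 to 15.98 log2 CPM with a median of 14.51, and replicate 42 was highest for both. Of the endothelial miRNAs, the SD was 0.29 for miR-126-3p and 0.29 for miR-126-5p, the 2 arms of a hairpin in the EGFL7 gene, but 0.52 for miR-221 and 0.51 for miR-222, which are far less abundant. The range of miR-126-3p was 11.55 to 12.77 log2 CPM.

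The largest CVs belonged to 2 red cell miRNAs, and 1 steer carried much of that. The red cell miRNA miR-451 ran from 129 to 8593 counts per steer with a median of 344, and its level from 5.67 to 11.32 log2 CPM with a median of 6.82. The top value was replicate 19, and the second highest steer stood at 8.39. Its CV was 190% over all steers and 49.7% without replicate 19. Its partner in the erythroid transcript, miR-144, ran from 4 to 339 counts with a median of 20, with replicate 19 again highest, and its CV went from 149% to 61% without that steer. Also on the red cell list, miR-486 had a CV of 27.5%, near the median of all miRNAs.

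Some white cell miRNAs were high in the same animal. In replicate 19, miR-223, a miRNA of neutrophils and monocytes, was highest of the 53 steers at 103 counts, miR-142-5p was highest at 465 counts and miR-142-3p was 4th. The lymphocyte miRNA miR-150 ranked only 29th there. The CV was 60.6% for miR-142-3p, 58.4% for miR-223, 51.5% for miR-146a and 21.6% for miR-150. How much blood each biopsy held is not given in the labels, and its part in these values was not tested.

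Connective tissue miRNAs made up a further variable set, again with a steer at the top. The fibroblast miRNA miR-199a-5p ran from 6.63 to 9.57 log2 CPM with a median of 7.40, and miR-214, from the same transcript, from 3.14 to 6.0 with a median of 4.02. Both were highest in replicate 53, as were miR-199a-3p, miR-199c, miR-152, miR-221, miR-204 and miR-21-5p. The CV of miR-199a-5p was 56% over all steers and 41.2% without replicate 53, and that of miR-204 was 138% and 43.3%. By contrast, miR-21-5p, also abundant in fibroblasts, had an SD of only 0.21 and miR-29a one of 0.24.

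The other highly variable miRNAs were mostly of low abundance. They were miR-2332 with a CV of 93.2%, miR-2285ba with 66.2%, miR-215 with 59.8%, miR-34a, which p53 induces, with 53.5%, miR-2419-5p with 52.8%, miR-2904 with 51.7%, miR-2887 with 51.6% and miR-1248 with 51.5%. Leaving out replicate 17, the highest steer for both, took the CV to 29.1% for miR-2904 and to 32.3% for miR-2887. Whether reads of the rows listed here come from miRNAs or from fragments of other RNAs was not tested. In all, 6 of the 226 miRNAs had a CV that a single steer moved by more than 1.5-fold: miR-451 and miR-144 with replicate 19, miR-204 and miR-199c with replicate 53, and miR-2904 and miR-2887 with replicate 17.

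**Figure D3:**
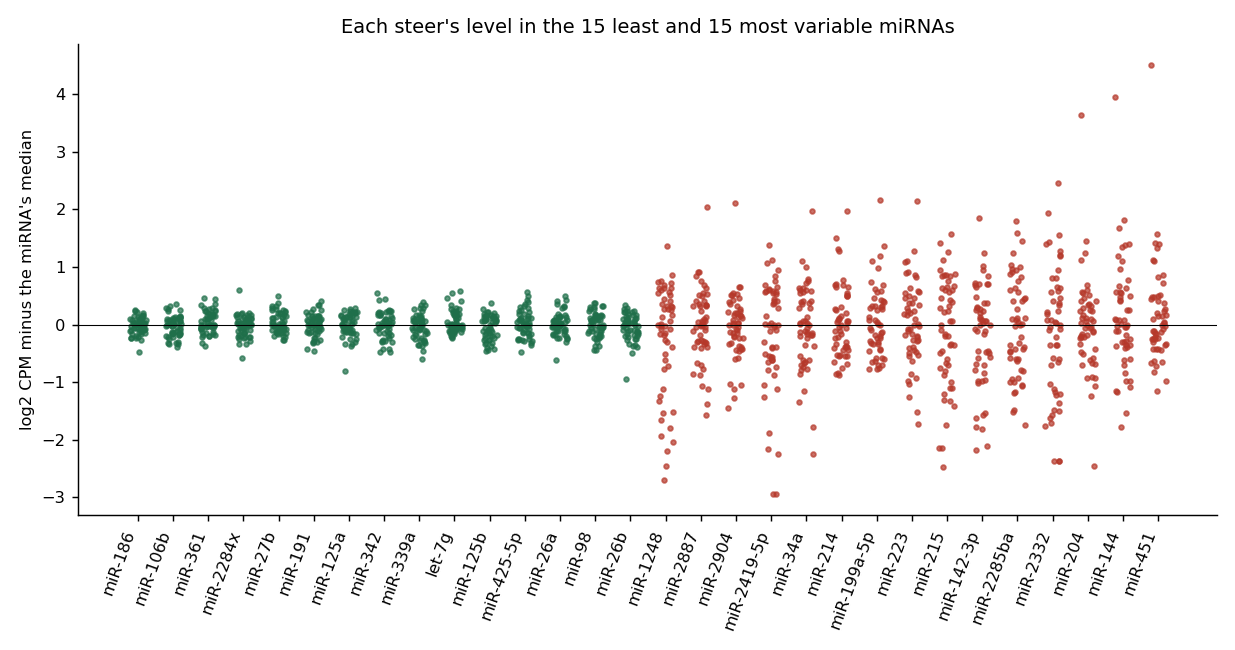
Level of each of the 53 normal steers as log2 CPM minus the median of the miRNA, for the 15 least variable miRNAs in green and the 15 most variable in red, ordered by CV, with 1 dot per steer. The single dots far above the rest belong to replicate 19 for miR-451 and miR-144 and to replicate 53 for miR-204.

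Extreme values were concentrated in a few animals. Replicate 53 was the highest steer for 23 of the 226 miRNAs and replicates 36 and 41 for 16 each. The median rank correlation with all other steers was lowest in replicate 53, at 0.955, and next lowest in replicate 36, at 0.957. The miR-1 share in replicate 53 was the second lowest of the group.

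Co-variation was measured as Pearson r of log2 CPM over the 53 steers for all 25425 pairs of the 226 miRNAs, with permutation p-values from 100000 resamples and Benjamini-Hochberg adjustment over all pairs. Steers were the units shuffled in the permutations. At an adjusted p of 0.05, 2770 pairs passed, which is 10.9% of those tested: 1567 positive pairs (6.16%) and 1203 negative ones (4.73%). The smallest size of r that passed was 0.37, and the median r over all pairs was -0.0042. By Spearman rho 2743 pairs passed, and 2309 passed by both with the same sign. Of the 2770, 2719 had the same sign of r among the 18 steers with animal numbers below 600 and among the 35 with numbers of 600 or above. A gap from 507 to 602 lies between these 2 ranges. The pairs were picked by r over these same steers, so this agreement is largely built in and is no separate support.

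The sign of r depends on the scale. With counts scaled by the library total, which is mostly miR-1, 13060 pairs passed, only 300 of them negative, and the median r was 0.31. All values of r below are on the TMM scale, and where a called or compared pair named below turns sign on the other scale, that is stated.

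The myomiRs did not move as 1 block. Of their 21 pairs 5 passed, all positive, against 6.16% of all pairs, and their median r was 0.17. The best-known pair, miR-1 and miR-133a, which are processed from shared transcripts, had r = -0.075 (rho = -0.27, adjusted permutation p = 0.81), and r = -0.32 without the 2 steers farthest from the median miR-1. Scaled by the library total, r was -0.66, on a scale of which miR-1 is itself the larger part.

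Of the 5 called pairs, 3 held miR-133a. For miR-133a with miR-133b, r was 0.59 (rho = 0.63, adjusted permutation p = 0.000913), with 0.90 in the lower number range and 0.46 in the upper. The rows have near-identical mature sequences, and reads of either may have been counted in both. For miR-133a with miR-206, r was 0.48 (adjusted permutation p = 0.0044), and with miR-208b 0.44 (adjusted permutation p = 0.016). With miR-499 (0.17) and miR-486 (-0.088) it was not called, the latter 0.13 with library totals. The slow-fibre pair miR-208b and miR-499 had r = 0.42 (rho = 0.41, adjusted permutation p = 0.0214), with 0.39 after leaving out the 2 farthest steers. With library totals taken without miR-1, neither miR-133a with miR-208b (r = 0.32) nor miR-208b with miR-499 (r = 0.32) passed.

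Other myomiR pairs gave mixed results. MiR-206 and miR-133b, which share a transcript, had r = 0.37 (adjusted permutation p = 0.0574), and rho = 0.40 (adjusted permutation p = 0.0328), so the call rested on the measure. MiR-1 and miR-486 had r = 0.40 (adjusted permutation p = 0.0328) on the TMM scale and -0.21 with library totals, and without replicate 53 the pair no longer passed (r = 0.34, adjusted p = 0.0942). No call was made for miR-1 with miR-499 (r = 0.21), with miR-206 (r = 0.094) or with miR-143 (r = 0.11), and with library totals these were -0.47, -0.70 and -0.60.

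**Figure D4:**
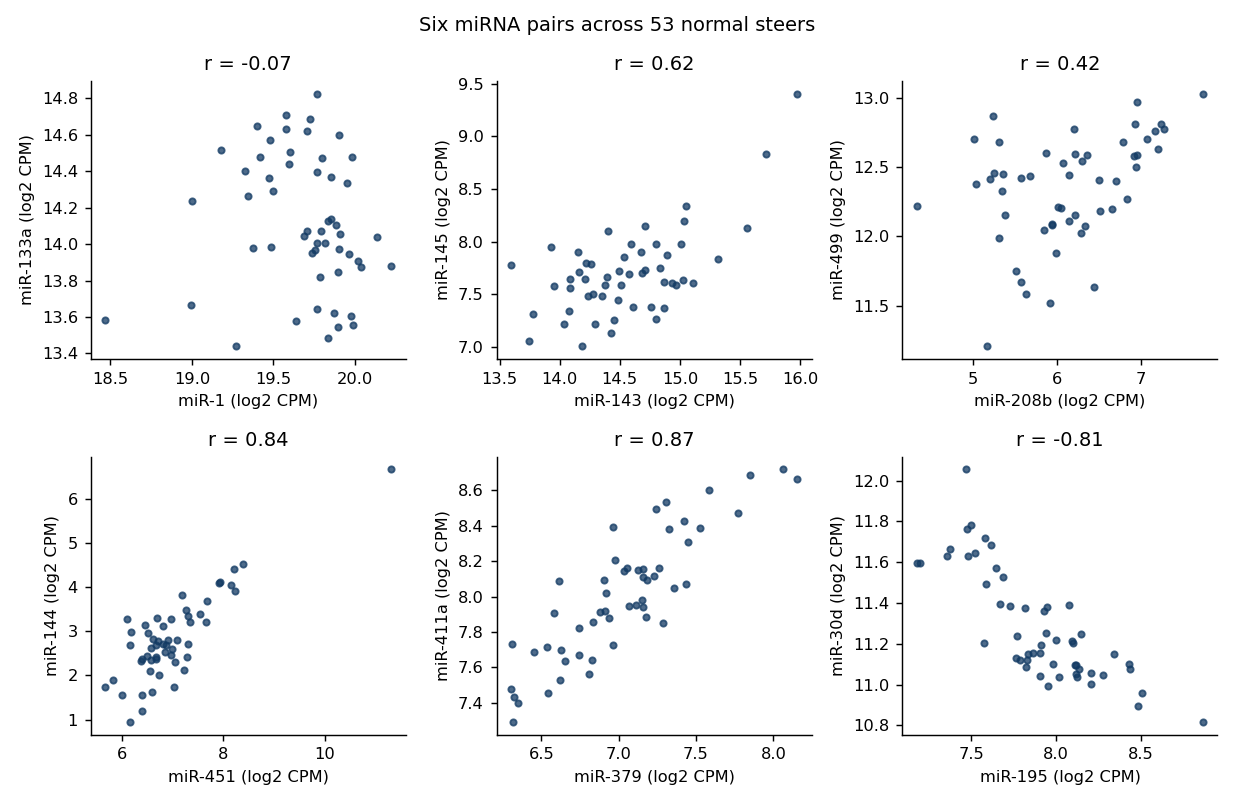
Levels in log2 CPM of 6 miRNA pairs, with 1 dot for each of the 53 normal steers and Pearson r above each panel. MiR-1 with miR-133a shows no line at r = -0.07, miR-379 with miR-411a the tightest rise at r = 0.87, and miR-195 with miR-30d a fall at r = -0.81.

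Several pairs made from 1 primary transcript varied together. For miR-379 and miR-411a, neighbours in the imprinted DLK1-DIO3 region, r was 0.87 (rho = 0.84, adjusted permutation p = 0.000597), the highest of all pairs that do not share a number and are not near copies. For miR-144 and miR-451, r was 0.84 (rho = 0.67, adjusted permutation p = 0.000597) and 0.75 without replicate 19. For miR-199a-5p and miR-214, r was 0.78 (rho = 0.70, adjusted permutation p = 0.000597), with 0.51 in the lower and 0.82 in the upper number range. The pair of miR-195 and miR-497 had r = 0.77 (rho = 0.73, adjusted permutation p = 0.000597) and miR-143 with miR-145 had r = 0.62 (rho = 0.44, adjusted permutation p = 0.000597), the latter 0.41 without the 2 steers of most distant miR-143. An adjusted p of 0.000597 belongs to a permutation p of 1e-05, the smallest that 100000 resamples can give, which 426 pairs reached.

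Not every such pair did. The endothelial miR-221 and miR-222 had r = 0.39 (adjusted permutation p = 0.0392), and rho = 0.35 (adjusted permutation p = 0.0732). Their call was also lost without replicate 53 and with values centred within number ranges. MiR-191 and miR-425-5p, which share a host gene and were both among the steadiest miRNAs, had r = 0.31 (adjusted permutation p = 0.13). For these, r was 0.68 in the lower and 0.18 in the upper number range. With library totals it was 0.76, and 0.52 with miR-1 left out of the totals. A pair on the red cell list that shares no transcript, miR-486 with miR-451, was not called either (r = 0.036, adjusted permutation p = 0.91).

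Clusters and families differed in how many of their pairs passed. In the DLK1-DIO3 cluster, a long run of miRNAs expressed from the maternal chromosome, the 55 listed names gave 51 rows with counts, of which 21 passed the count minimum. Of the 210 pairs of those 21 miRNAs, 99 passed, all positive, against 6.16% of all pairs called positive, with a median r of 0.35, and the lowest was miR-136 with miR-543 at -0.056 (0.12 with library totals). A second close pair in it was miR-381 with miR-655, at r = 0.83. The X-linked miR-424, miR-503 and miR-450 rows had 5 of 10 pairs called with a median r of 0.39. The miR-17-92 cluster and its relatives had 4 of 45 called with a median of 0.12, a share close to the 6.16% of all pairs.

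Of all pairs 10.9% were called in either direction. Among the listed families, miR-378 had 5 of 6 pairs called (median r = 0.71) and miR-15/16 10 of 15 (0.60). MiR-29 had 7 of 10 (0.45) and let-7 22 of 45 (0.35). The let-7, miR-29 and miR-30 rows take in the opposite arms let-7a-3p, miR-29d-5p and miR-30b-3p, which lack the family seed. The 1 negative call of let-7, let-7d with let-7i at -0.38, was 0.29 with library totals. In miR-15/16 the 5 pairs with miR-15b all failed to pass. MiR-30 had 6 of 21 called (0.10), with miR-30a-5p and miR-30d at 0.60 and miR-30b-3p in no called pair of the family. Over all 143 pairs that share a number the median r was 0.32, with 65 called positive and 1 negative. Shared reads between near-identical rows cannot be told apart from shared levels here.

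The smaller clusters and families behaved alike in part. Those named here had positive calls only, against 6.16% of all pairs called positive. The miR-99, miR-100 and miR-125 rows, which neighbour let-7 genes, had 7 of 15 pairs called (median r = 0.35), led by miR-125b with miR-99a-5p at 0.70, and no called pair held miR-125a. Of the miR-23a, miR-27a and miR-24 rows 3 of 6 pairs passed (0.44), as did 3 of 6 of the miR-23b, miR-27b and miR-24 rows (0.38). The called pair of miR-24-3p with miR-24 (r = 0.66) is counted in both sets and again among the hairpin arms below. The rows of miR-148 with miR-152 and those of miR-181 each had 2 of 3 pairs called. The single pairs of miR-26a with miR-26b (r = 0.63), miR-103 with miR-107 (0.68) and miR-192 with miR-194 (0.54) passed.

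The miRNAs of the HOX clusters, which mark position along the body, gave calls of both signs. MiR-10a with miR-10b had r = 0.73 and miR-196a with miR-196b had r = 0.47, and both passed. MiR-196b ran against miR-10a (r = -0.59, adjusted permutation p = 0.000597) and miR-10b (r = -0.52, adjusted permutation p = 0.00176), whereas miR-196a with miR-10a (-0.19, and 0.21 with library totals) and with miR-10b (0.070) did not pass. With library totals these negative values shrank to -0.055 and -0.0081.

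Arms of 1 hairpin ranged from closely linked to unlinked. Over 17 pairs of arms, counting miR-24 as a partner of miR-24-3p by name, the median r was 0.22. Of these pairs 6 passed, all positive, against 6.16% of all pairs called positive. The highest were miR-199a at 0.88 and miR-142 at 0.70, then miR-24 and miR-423, both at 0.66. The arms of let-7a had r = 0.0056 (-0.22 with library totals), and those of miR-30b 0.0069. Arms of miR-22 (r = -0.32, adjusted permutation p = 0.12) and miR-151 (r = -0.34, adjusted permutation p = 0.0966) had negative values that did not pass, and the latter passed by Spearman rho (-0.40, adjusted permutation p = 0.0377). With library totals r was 0.22 for miR-22 and 0.28 for miR-151.

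Cell type lists were internally linked to different extents. Of the white cell pairs 7 of 15 passed, against 6.16% of all pairs called positive, with miR-142-5p and miR-146a at r = 0.75 and miR-142-3p and miR-146a at 0.74, and no pair with miR-150 among them. Among the fibroblast miRNAs 18 of 36 passed, all of them within a set of miR-199a, miR-199b, miR-199c, miR-214 and miR-21-5p or within the miR-29 rows. None of the 18 pairs across these sets passed by r, which lay between -0.37 and 0.12. By Spearman rho 3 of them passed, all negative: miR-199b with miR-29c (-0.48, adjusted permutation p = 0.00559), miR-21-5p with miR-29c (-0.41, adjusted permutation p = 0.0302) and miR-21-5p with miR-29a (-0.40, adjusted permutation p = 0.0407). With library totals r turned positive for these 3, such as 0.49 for miR-21-5p with miR-29a, which was -0.34 on the TMM scale. Of the 18 pairs of a red with a white cell miRNA 5 passed, all positive, with a median r of 0.044 over the 18. None of the 5 held miR-486, miR-150, miR-146a or miR-155. The highest was miR-451 with miR-223 at r = 0.62 (adjusted permutation p = 0.000597), and 0.52 without replicate 19. The link of miR-451 with miR-142-5p at 0.44 (adjusted permutation p = 0.0131) was lost without that steer (0.25).

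Average linkage on r, joining down to 0.5, gave 16 groups of at least 3 miRNAs with 92 members in all, 21 groups of 2 and 92 single miRNAs. These groups come from the values and carry no test. The first held 19 miRNAs with a median r of 0.58: miR-126-3p, miR-24-3p, miR-27a-3p, miR-16a, miR-148a, miR-32, miR-16b, miR-195, miR-374a, miR-6119-5p, miR-148b, miR-146a, miR-208b, miR-374b, miR-2285bf, miR-142-5p, miR-497, miR-1434-5p and miR-142-3p. Its most linked members over all 225 partners were miR-6119-5p with 82 called pairs, miR-208b with 79 and miR-374a with 75, against a median of 19.

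The abundant miRNAs fell into separate groups. MiR-1 grouped with miR-30a-5p, miR-101 and let-7a-3p (median r = 0.55), whereas miR-133a grouped with let-7a-5p, let-7b, let-7c, let-7d, let-7e and miR-196a (0.65). MiR-143 grouped with miR-145, miR-28 and miR-218 (0.58), and miR-22-3p with miR-29a, miR-29b, miR-29c, miR-15a, miR-331-3p and miR-362-3p (0.58). MiR-30d grouped with miR-10a, miR-10b, miR-22-5p, miR-128 and miR-92a (0.58), and miR-378 with its relatives and miR-2284y (0.63). DLK1-DIO3 members formed 2 groups, 1 around miR-379, miR-411a and miR-127 and 1 around miR-381, miR-494 and miR-655.

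**Figure D5:**
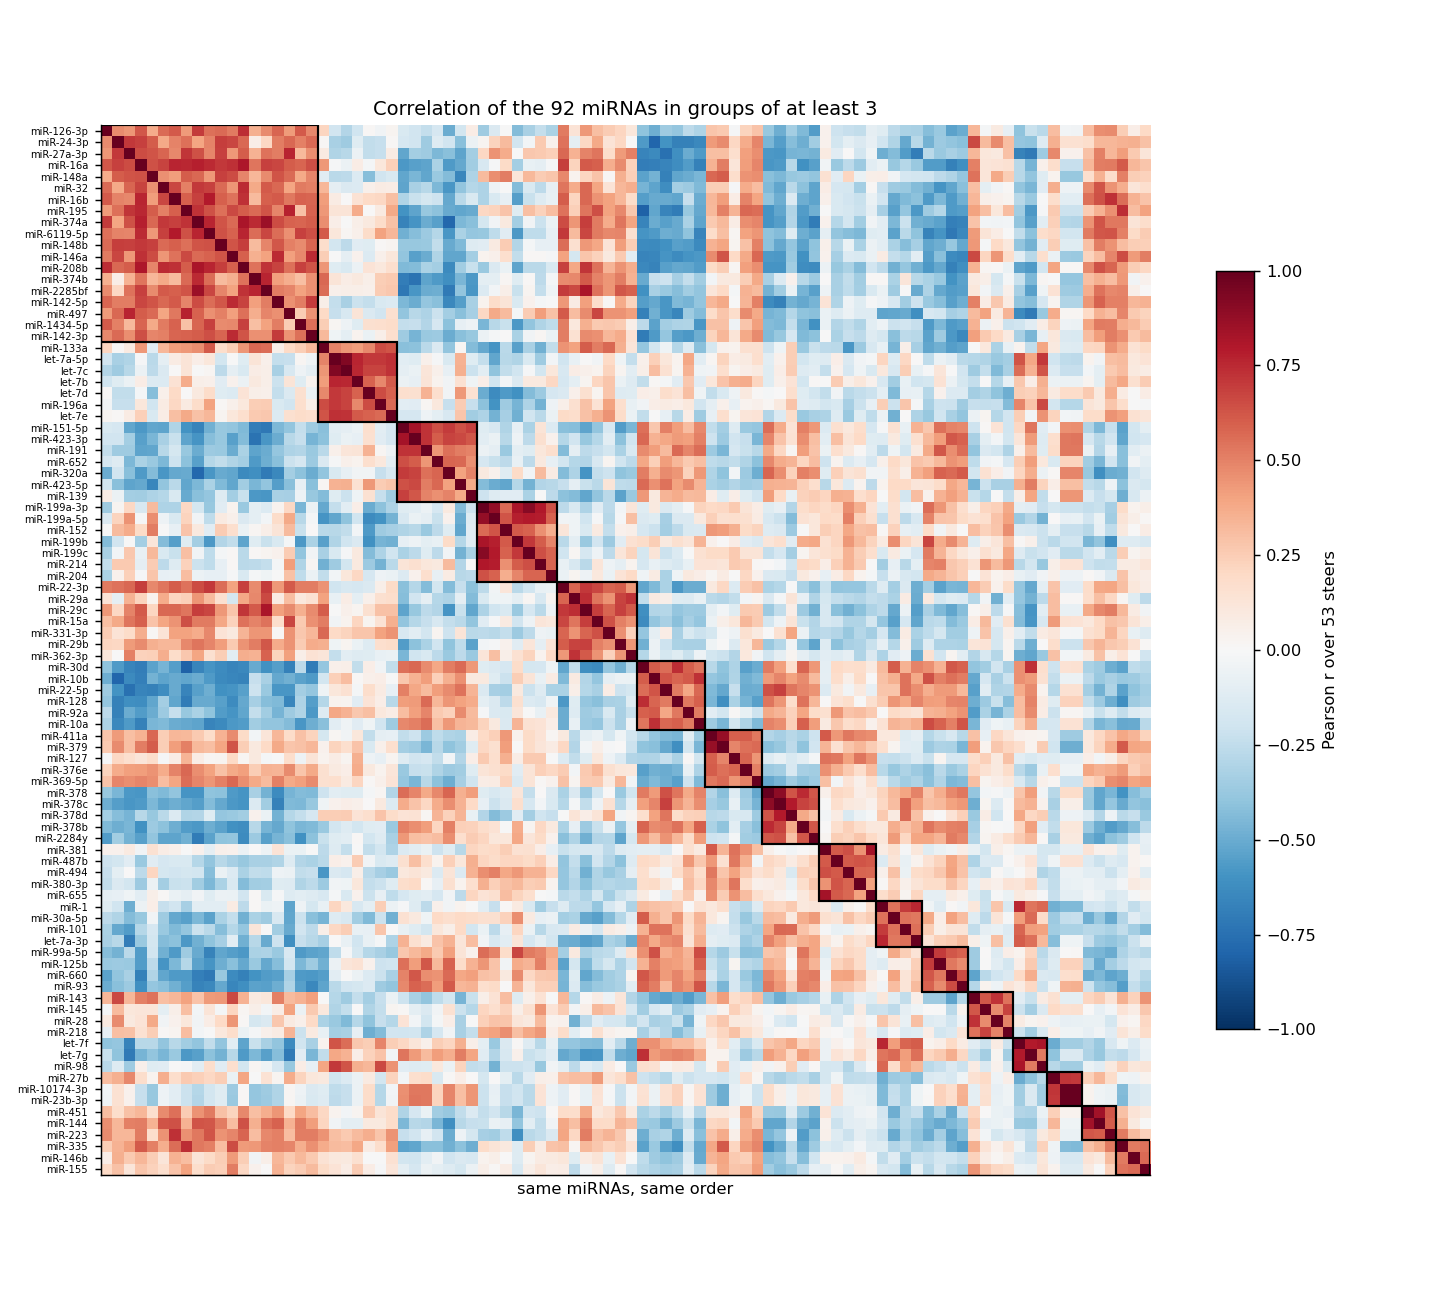
Pearson r over the 53 normal steers, on a colour scale from -1 to 1, for the 92 miRNAs in groups of at least 3, with black boxes around the 16 groups. The first box, of 19 miRNAs from miR-126-3p to miR-142-3p, is red within and blue against the group of miR-30d and miR-10b, where miR-10b with miR-24-3p had r = -0.79.

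Beyond the pairs given above, several of the closest pairs held miR-374a or miR-208b. The little-described bovine miR-2285bf had r = 0.85 with miR-374a and 0.82 with miR-29c, miR-208b had 0.82 with miR-374a and 0.81 with miR-16a, and miR-16b had 0.80 with miR-6119-5p. MiR-151-5p with miR-423-3p had 0.83, and let-7f with miR-98, both rows of the let-7 list, had 0.82. All of these passed with an adjusted permutation p of 0.000597 and had rho of at least 0.76. They also kept their sign in both number ranges, which their choice by r over the same steers largely fixes. Whether any of these pairs shares a transcript or reads was not tested.

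The 10 most negative pairs joined miRNAs of different groups, and 3 of them set the group of miR-30d, miR-10b and miR-22-5p against the first group. MiR-195 and miR-30d had r = -0.81 (rho = -0.81), miR-10b and miR-24-3p -0.79 (rho = -0.82), miR-320a and miR-374a -0.79 (rho = -0.81) and miR-22-5p and miR-27a-3p -0.75 (rho = -0.67). The remaining 6 of the lowest 10 were miR-374b with miR-423-3p, miR-151-5p with miR-2285bf, miR-6119-5p with miR-660, let-7g with miR-497, let-7g with miR-27a-3p and miR-2285bf with miR-320a, at -0.74 to -0.70. Each of the 10 had an adjusted permutation p of 0.000597 on the TMM scale, and none was called on the library-total scale. There the sign turned for miR-195 with miR-30d (0.0073), miR-22-5p with miR-27a-3p (0.12), let-7g with miR-497 (0.30) and let-7g with miR-27a-3p (0.28).

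Principal components of the 226 miRNAs put several of these sets on shared axes. The first held 16.7% of the variance, the second 8.83% and the third 5.43%. The first had its largest positive loadings on miR-144, miR-208b, miR-142-3p, miR-374a and miR-223 and its most negative on miR-885, miR-378b, miR-2284y, miR-99a-3p and miR-502b, and replicates 19 and 36 scored highest on it. The second ran from miR-2332, miR-215, miR-2904, miR-2887 and miR-2419-5p at the negative end to miR-214, miR-199a-5p, miR-204, miR-221 and miR-199a-3p at the positive end, with replicate 53 at the top. Scores on the first axis ran from -4.89 to 6.17.

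Depth and the miR-1 share moved with parts of the profile. Of 11 relations tested by permutation, 3 passed after adjustment over the 11. Log10 total count rose with rows detected (r = 0.68, rho = 0.66, adjusted permutation p = 5.5e-05), and r was 0.60 without the 2 farthest steers and 0.71 and 0.68 in the lower and upper number ranges. The miR-1 share fell as more rows were detected (r = -0.60, rho = -0.64, adjusted permutation p = 5.5e-05), with -0.60 without the 2 farthest and -0.64 and -0.59 within the ranges. By construction, a library with a lower miR-1 share has more of its counts left for other rows. The p-value of this relation cannot separate that arithmetic from other differences. Total count with miR-1 share gave r = 0.014 and did not pass (adjusted permutation p = 0.98).

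The third relation joined the miR-1 share to the first component, on which miR-144, miR-208b and miR-142-3p had the largest loadings (r = -0.40, rho = -0.52, adjusted permutation p = 0.0107). Without the 2 farthest steers r was -0.50. Within the lower number range r was -0.72 (permutation p = 0.00155, n = 18), and within the upper range it was -0.26 and did not pass (permutation p = 0.133, n = 35). Of the other blood miRNAs, miR-451 had r = 0.60 with this component and miR-142-5p 0.75, but miR-150 0.049 and miR-486 -0.33. The parts of blood content and of the miR-1 share in this axis were not tested.

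Few miRNAs passed between the animal number ranges after adjustment. Of 226 tested with edgeR, 1 passed (0.442%), and 35 had an unadjusted p below 0.05 (15.5%). That share is above the 0.05 such a threshold lets through when no miRNA differs. Levels of the miRNAs are correlated, so this excess is not itself a test. The call was miR-128, a miRNA abundant in brain and muscle, which had 8.53 ± 0.36 log2 CPM (SD, n = 18) below 600 and 8.21 ± 0.26 (SD, n = 35) from 600 on, a log2 fold change of -0.34 ± 0.08 (SE; edgeR quasi-likelihood adjusted p = 0.0349). Only 5 of the 35 steers in the upper range lay above the median of the lower one, but the ranges of single steers overlapped. The call was lost without replicate 20 and without replicate 53. It was also lost with DESeq2, its size factors, library totals and either other low-count filter. It held without replicate 19 and with limma-voom. Over the alternatives the adjusted p of miR-128 lay between 0.0389 and 0.358. What the numbers stand for is not given in the labels.

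The next smallest p-values belonged to miR-215, miR-369-5p, miR-24-3p, miR-142-3p, miR-451, miR-26a, miR-155, miR-532 and miR-378, each with an edgeR adjusted p of 0.183. Log2 fold changes of the upper against the lower range were 0.97 ± 0.34 (SE) for miR-451 and 0.69 ± 0.24 for miR-142-3p, against -0.79 ± 0.25 for miR-215 and -0.16 ± 0.06 for miR-26a. None of these passed, and miR-451 takes in replicate 19, whose number is in the upper range.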

How the data were processed

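Small RNA libraries of 53 Normal steers were used. The authors deposited raw read counts, 1 row for each mature miRNA and 1 column for each steer, and no scaling had been applied to them, judging by their values. Tools listed in the submitters' notes on processing are Trimmomatic 0.32, FastQC and DESeq2 1.34.0. Which aligner, reference set and build were used, and how reads matching several miRNAs were counted remains not given in the sources used here. Names are given without the species prefix, and no sequences are shown.

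Rows with identical counts were joined. Spread and pairs used rows with a mean count of at least 10, TMM scaling in edgeR 4.0.16 (R 4.3.3) and log2 CPM with a prior count of 2. Pairs were tested by permutation with scipy 1.17.1 and numpy 2.4.6, number ranges with edgeR's robust quasi-likelihood test, and all with Benjamini-Hochberg adjustment at 0.05. DESeq2 1.42.0 and limma 3.58.1 served as alternatives. Methods were tested on simulated data.

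The miRNAs and the 29 lists were chosen with earlier results of these data known. Named miRNAs are the 20 most abundant, the 15 most and 15 least variable (the latter with a mean count of at least 100), the most abundant list members, the 15 highest and 10 lowest pairs of rows that are not near copies, the 10 smallest p-values between number ranges and the 5 largest loadings each way. Pairs across lists, arms and steers that stand apart were named after their values were seen.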

Additional observations from a re-analysis of the deposited data

How the results depend on the processing

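The choice of library scaling mattered most. The median CV between steers was 24.8% with TMM and 34.8% with library totals. With library totals in place of TMM, the correlated miRNA pairs in normal steers numbered 13060 in place of 2770, the first of the principal components of normal steers held 29.9% of the variance in place of 16.7%, and the groups of co-varying miRNAs took in 166 miRNAs in place of 92. Of the called pairs followed through the settings, 5 turned sign on that scale. They were let-7g with miR-27a-3p (0.28), let-7g with miR-497 (0.30), miR-1 with miR-486 (-0.21), miR-195 with miR-30d (0.0073) and miR-22-5p with miR-27a-3p (0.12). Some of the other pairs that turned sign are given above. The cause was not tested. DESeq2 size factors, Spearman rho, a prior count of 0.5, depth as a covariate, centring within number ranges and leaving out replicate 19, 20 or 53 each kept the number of called pairs within 1.5 times. The share of miR-143 in normal steers was 16.2% with miR-1 left out of the total, by construction. The miRNAs differing between animal number ranges in normal steers numbered 0 with DESeq2 or its size factors, with library totals and with either other low-count filter, and 2 with limma-voom, miR-128 and miR-215. Leaving out replicate 19, 20 or 53 gave between 0 and 1. At an unadjusted p below 0.05 these settings gave from 24 of 226 miRNAs, with library totals, to 41 of 381, with a mean count of at least 1. Over the other single pairs and their alternatives, 663 values kept their side of the threshold, 15 came to pass and 14 no longer passed. No paired analysis was possible because a single group was described. Depth limits the rare rows: 462 of 688 had a mean count below 10 and were given no spread.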
